A study of Mus musculus with 18 samples.

Results

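Mitochondrial ribosomal proteins were examined in bone marrow-derived macrophages (BMDMs) as all genes whose symbol is Mrpl or Mrps followed by a number and, in 3 genes, a letter. The rule found 78 genes among the 24485 listed, 49 named for the large ribosomal subunit (Mrpl) and 29 for the small subunit (Mrps). It uses names alone and no measured value. RNA-seq of 18 libraries was available, in 6 groups of 3. All cells came from Il10-/- mice on the C57BL/6J background, which cannot make interleukin 10 (IL-10), and the study contained no wild-type group among these libraries. Bone marrow of 3 male mice aged 12 weeks was grown for 6 days in L929-conditioned medium. The groups were Unstimulated, JQ1 (500 nM (+)-JQ1), IL-10 (10 ng/mL), LPS (50 ng/mL), LPS + JQ1 and LPS + IL-10, with a pretreatment of 12 h followed by 4 h of LPS or saline buffer. JQ1 is a small molecule that occupies the bromodomains of the BET proteins, and LPS is a component of the bacterial cell wall that activates macrophages. The labels describe the control pretreatment as untreated, although a vehicle is given in the methods for cells that later received LPS. The groups are described as matched biological replicates from 3 mice, but no label ties a replicate number to a mouse, so p-values measure the spread between these samples.

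Mitochondria carry their own ribosome, which translates the few proteins encoded by mitochondrial DNA, all of them subunits of the oxidative phosphorylation complexes. The RNA of this ribosome is made inside the organelle, whereas every one of its proteins is encoded in the nucleus, translated in the cytosol and imported. Some of these proteins descend from bacterial ribosomal proteins and others were added during the evolution of mitochondria. By this classification, taken from general knowledge and not from the data, 51 members belong to the large subunit and 26 to the small subunit, 48 have a bacterial homologue and 29 are mitochondria-specific. Mrps18a and Mrps30 were placed in the large subunit, where their proteins sit despite the names. The remaining member, Mrps36, was left out of both, since its protein is now known as a component of the 2-oxoglutarate dehydrogenase complex.

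The promoters of the 3 members with the largest rises and the 3 with the largest falls with LPS, among those with a sequence available, are shown because they carry the contrast that runs through the data, 3 genes that were higher with LPS and 3 that were lower. Each line gives the 250 bases before the transcript start in RefSeq, read 5′ to 3′ on the strand of the gene, in the build GRCm38.p6. Capitals mark a match to any of 4 short motifs on either strand, CCGGAAG (the core of ETS and GABP sites), CATGCGC (an NRF1 half-site), CACGTG (the E-box of Myc and Max) and AAGATGGC (YY1). The lines are, in order, from chr14:54426659-54426908 (plus strand), chr16:84735245-84735494 (minus), chr9:105053018-105053267 (plus), chr2:24975099-24975348 (minus), chr17:46645971-46646220 (plus, the first of several starts of this gene) and chr16:18876638-18876887 (minus).
Mrpl52: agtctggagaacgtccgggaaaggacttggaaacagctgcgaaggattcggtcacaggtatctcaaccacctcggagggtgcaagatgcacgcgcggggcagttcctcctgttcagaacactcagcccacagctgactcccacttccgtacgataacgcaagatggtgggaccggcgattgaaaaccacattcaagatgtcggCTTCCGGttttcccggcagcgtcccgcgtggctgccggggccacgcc
Mrpl39: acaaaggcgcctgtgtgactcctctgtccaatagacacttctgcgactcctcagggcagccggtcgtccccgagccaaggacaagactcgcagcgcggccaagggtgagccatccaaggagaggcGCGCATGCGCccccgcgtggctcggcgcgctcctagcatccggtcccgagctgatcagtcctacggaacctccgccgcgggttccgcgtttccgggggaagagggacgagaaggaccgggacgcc
Mrpl3: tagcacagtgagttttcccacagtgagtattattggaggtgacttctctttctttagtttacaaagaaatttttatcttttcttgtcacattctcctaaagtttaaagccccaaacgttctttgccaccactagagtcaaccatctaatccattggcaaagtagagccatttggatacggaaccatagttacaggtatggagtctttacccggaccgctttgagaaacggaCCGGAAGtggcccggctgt
Mrpl41: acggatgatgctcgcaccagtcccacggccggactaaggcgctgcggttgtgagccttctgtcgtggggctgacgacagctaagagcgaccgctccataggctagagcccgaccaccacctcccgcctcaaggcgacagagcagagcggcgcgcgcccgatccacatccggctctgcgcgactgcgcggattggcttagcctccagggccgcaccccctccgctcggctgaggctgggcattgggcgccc
Mrpl2: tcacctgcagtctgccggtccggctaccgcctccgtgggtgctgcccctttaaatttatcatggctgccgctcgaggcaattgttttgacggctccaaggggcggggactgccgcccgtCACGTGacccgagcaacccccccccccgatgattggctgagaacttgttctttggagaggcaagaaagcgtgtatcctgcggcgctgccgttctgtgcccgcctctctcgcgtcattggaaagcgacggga
Mrpl40: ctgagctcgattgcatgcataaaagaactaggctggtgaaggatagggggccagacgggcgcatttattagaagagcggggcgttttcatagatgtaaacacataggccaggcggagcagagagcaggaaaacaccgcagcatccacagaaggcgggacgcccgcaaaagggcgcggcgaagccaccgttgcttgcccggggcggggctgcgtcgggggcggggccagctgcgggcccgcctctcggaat
The first 3 genes were higher and the last 3 lower with LPS. In the bases shown, Mrpl52 and Mrpl3 held an ETS core, Mrpl39 held 2 overlapping NRF1 half-sites and Mrpl2 held an E-box, while none of the letters searched stood in Mrpl41 or Mrpl40.

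A promoter of 300 bases (250 before the start and 50 after) was found for 69 of the 78 members, and 40 of these held at least 1 of the 4 motifs. The ETS core was present in 37.7% of member promoters against 9.93% of the 27025 genes with a promoter and 20.6% of the 9446 that were expressed (10 counts or more in 3 or more libraries). For the YY1 core the shares were 17.4%, 3.19% and 5.52%, and for the NRF1 half-site 11.6%, 4.41% and 8.12%. E-boxes were in 7.25% of member promoters, 8.09% of all and 11.8% of the expressed genes. Between members that were higher and lower with LPS, the ETS core was found in 12 of 27 and 9 of 20, and the NRF1 half-site in 6 of 27 and 1 of 20. The E-box was found in 2 of 27 and 1 of 20, and the YY1 core in 4 of 27 and 3 of 20. These matches are descriptions of short strings and were not tested.

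All 78 members were expressed. Each had at least 10 counts in every library and was tested in every comparison. Mean TPM, a length-scaled relative abundance, ran from 4.23 for Mrpl35 to 280.2 for Mrpl52 with a median of 23.4, and 74 members lay above the median gene with a count, at 4.62. Of these, 65 members reached a mean of 10 TPM and 3 reached 100. The highest after Mrpl52 were Mrps21 (150.82 TPM), Mrpl54 (109.71), Mrpl20 (79.39) and Mrpl30 (74.11), and the lowest before Mrpl35 were Mrps25 (4.51), Mrpl17 (4.6), Mrpl19 (4.62) and Mrpl1 (4.63). Median levels of the large and small subunit symbols were close, at 22.8 and 24.2 TPM.

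The total of expected counts per library was 6781952 to 28289498, and 3 counts corresponded to 0.106 to 0.442 CPM. Replicate 3 of LPS and of LPS + IL-10 stood apart from the other 2 replicates of their group, with a chi-square per degree of freedom of 24.2 to 28.3 against 3.97 to 10.5 in all other pairs. Rn45s, the ribosomal RNA precursor, took 9.11% to 12.5% of counts without LPS and 5.54% to 7.92% with LPS. All 7 macrophage markers were present, and they summed to 22467.37 to 24105.16 TPM in Unstimulated, 28155.12 to 28291.98 with JQ1, 22621.8 to 23940.53 with IL-10, 12766.06 to 13935.66 with LPS, 17922.88 to 20527.58 with LPS + JQ1 and 13497.46 to 14860.59 with LPS + IL-10. Lyz2 made up most of these sums, at 24470.65 to 24852.55 TPM with JQ1 and 9721.56 to 10567.01 with LPS. The single markers moved both ways. With JQ1, Lyz2 and Mertk lay above all Unstimulated libraries, and Adgre1, Cd68, Csf1r, Itgam and Fcgr1 lay below. With LPS, Adgre1 and Fcgr1 lay above and the others below. In addition, no list of neutrophil, T cell, B cell, dendritic, fibroblast or erythroid markers exceeded 9.59 TPM in a library, with Ly6g at 0 in all. Their part in the results was not tested. In such bulk samples a lower level in each cell and fewer cells that express a gene cannot be told apart.

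As a share of all transcripts the members summed to less in each group given LPS than in the group with the same pretreatment alone. Summed TPM was 2874 ± 126 in Unstimulated (SD, n = 3), 2576 ± 56.9 with JQ1, and 3006 ± 82 with IL-10. In the stimulated groups it was 2143 ± 56.1 for LPS, 2404 ± 77 for LPS + JQ1 and 2317 ± 94.3 for LPS + IL-10. For the 29 Mrps genes the sum was 1009 ± 46.6 in Unstimulated and 624.7 ± 24 with LPS, and for the 49 Mrpl genes 1865 ± 81.2 and 1519 ± 33.1. Mrpl52 alone accounted for 209.31 ± 46.62 and 378.84 ± 27.62 TPM of these Mrpl sums. With LPS + JQ1 the Mrps sum was 837 ± 25.1, above all LPS libraries and below all JQ1 libraries (939.3 ± 3.21). These sums have no test, and a sum of TPM follows its most abundant members.

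**Figure D1:**
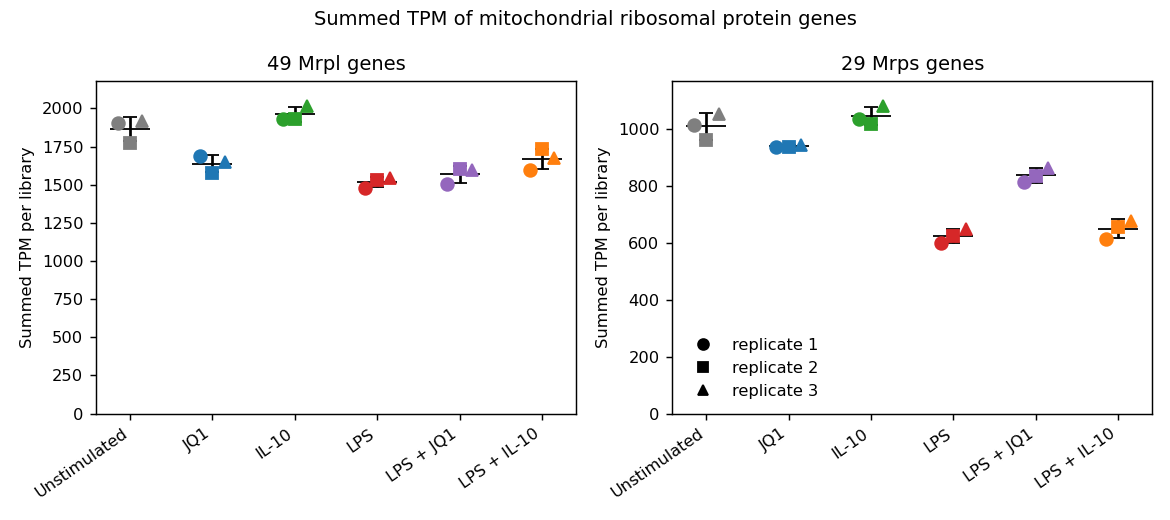
Summed TPM of the 49 Mrpl genes (left) and the 29 Mrps genes (right) in each of the 18 libraries, by group, with both axes starting at 0. Points are libraries with the replicate as symbol, and bars are the mean and SD. The Mrps sum was 601 to 649 in the 3 LPS libraries and 961 to 1054 in the 3 Unstimulated ones.

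With LPS some members rose and others fell. The effect of LPS on otherwise untreated cells is the first comparison of the design. Of 78 members, 33 were higher and 23 lower with LPS than in Unstimulated cells (DESeq2, adjusted p under 0.05), against 31.7% higher and 33% lower of all genes tested. The median log2 fold change of the members was 0.09 and that of all genes −0.07, with members from −1.59 to 1.65. Called changes were mostly under 2-fold, in 47 of 56 members, and the groups did not overlap for 59 members (75.6%), against 69.5% of all genes tested. The split between directions depended on the scaling. With total-count scaling 4 were higher and 62 lower, and on TPM 6 were higher and 60 lower, with the median of all genes at −1.02 and −0.69 (−0.15 with TMM factors). The member median lay 0.07 to 0.17 above that of all genes under each scaling tried. All 23 falls and 4 of the 33 rises (Mrpl52, Mrpl39, Mrpl3 and Mrpl13) passed in the same direction under all of these scalings. Every member had at least 10 counts in every library, which many of the genes tested did not. Among the 9378 genes that did, the median was 0.01 for members and −0.02 for all. In that set 54 members (69.2%) and 7520 of the 9378 genes passed. Without replicate 1, 36 members passed, and without replicate 3, 44.

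The largest rise belonged to Mrpl52, a mitochondria-specific protein of the large subunit. Its normalised counts were 404.2, 294.3 and 309.0 in the Unstimulated replicates and 1166.4, 1098.1 and 909.8 in the LPS replicates. Every LPS library lay far above every Unstimulated one, with a log2 fold change of 1.65 ± 0.143 (SE, DESeq2 adjusted p = 4.62e-30), or 0.72 with total-count scaling.

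Mrpl39, another mitochondria-specific large subunit protein, had 189.0, 201.3 and 181.7 normalised counts without and 511.8, 553.2 and 558.6 with LPS, and rose by 1.52 ± 0.0979 on the log2 scale (DESeq2 adjusted p = 1.7e-53). Mrpl3 descends from a bacterial protein near the peptidyl transferase centre. It went from 251.5, 230.0 and 258.1 to 667.3, 635.9 and 712.1, a rise of 1.43 ± 0.104 (DESeq2 adjusted p = 2.31e-42). In both genes the 3 LPS libraries were close to each other and clear of the controls. Mrpl13 rose by 1.29, while the values for Mrpl27 (1.05) and Mrpl54 (1.03) did not pass with total-count scaling, at 0.12 and 0.10.

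In the other direction, Mrpl41, a mitochondria-specific protein of the large subunit, showed the largest fall. It had 118.8, 101.5 and 113.3 normalised counts in Unstimulated cells and 41.0, 33.1 and 39.3 with LPS. All LPS libraries lay well below all controls, and the log2 fold change was −1.59 ± 0.192 (DESeq2 adjusted p = 4.72e-16). Mrpl2, whose bacterial homologue lies at the peptidyl transferase centre, went from 288.5, 323.0 and 272.8 to 132.9, 135.4 and 101.9, with a log2 fold change of −1.24 ± 0.136 (DESeq2 adjusted p = 4.15e-19). Further falls were those of Mrps35 (−1.16), Mrpl40 (−0.96), Mrpl34 (−0.95) and Mrpl49 (−0.86). All 6 kept their direction and passed under every alternative.

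**Figure D2:**
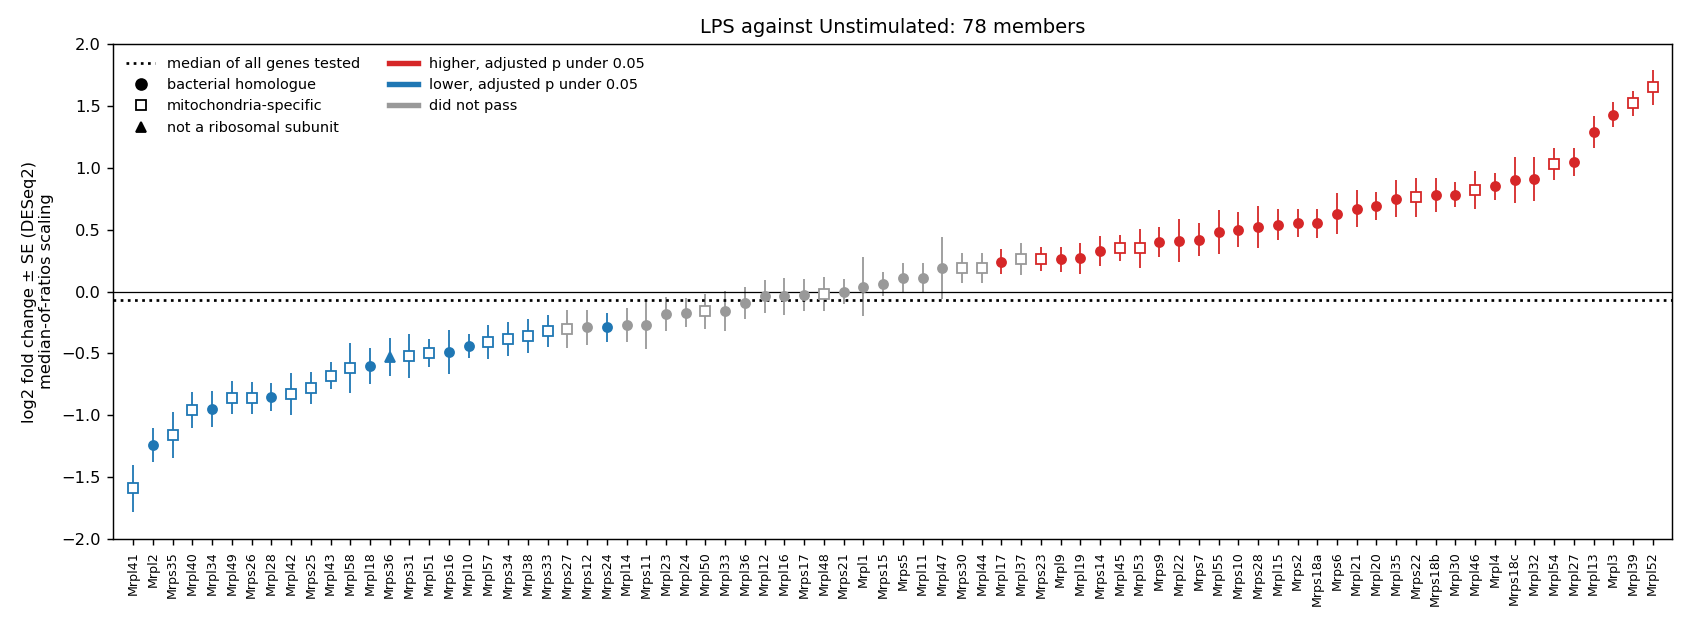
DESeq2 log2 fold change of each of the 78 members, LPS against Unstimulated, ordered by value, with median-of-ratios scaling (y axis, error bars are SE). Red marks 33 members higher, blue 23 lower and grey those that did not pass, and open squares are mitochondria-specific proteins. With total-count scaling the whole series would lie lower, with 4 higher and 62 lower.

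Of the 48 with a bacterial homologue, 25 were higher and 7 lower with LPS, with a median of 0.25, where all genes stood at 31.7% higher, 33% lower and −0.07. Of the 29 mitochondria-specific ones, 8 were higher and 15 lower, with a median of −0.32. The contrast was wider in the small subunit, where 17 proteins of bacterial descent had a median of 0.33 (9 higher, 2 lower) and 9 mitochondria-specific ones a median of −0.38 (2 higher, 6 lower). In the large subunit the medians were 0.24 (31 members) and −0.09 (20 members). A shift of scale moves both classes alike, so their order does not depend on it, whereas the counts in each direction do. Summed TPM, which follows the most abundant members, ran differently. For the members of bacterial descent it was 1865 ± 79 in Unstimulated and 1281 ± 76.9 with LPS, and for the mitochondria-specific ones, Mrpl52 among them, 970.4 ± 62.9 and 846.9 ± 19.7. The difference between classes was not tested.

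The 3 paralogues of the bacterial S18 protein were all higher at this scaling, with log2 fold changes of 0.55 for Mrps18a, 0.78 for Mrps18b and 0.90 for Mrps18c, but with total-count scaling the values were −0.38, −0.15 and −0.03. Mrps22, in which mutations cause a human mitochondrial disease, rose by 0.76 (−0.17 with total-count scaling). Mrps16 fell by 0.49, a call lost without replicate 2 or replicate 3 and with only the groups compared, and Mrps36 fell by 0.53. Mrpl10, the anchor of the stalk that recruits translation factors, fell by 0.44, while its partner in the stalk, Mrpl12, was at −0.04 (DESeq2 adjusted p = 0.832) and at −0.97 with total-count scaling. Mrpl44, Mrps12, Mrps27 and Mrps30 did not pass, with values of 0.19, −0.29, −0.30 and 0.19. Mrps12 and Mrps27 passed with TMM factors, at −0.37 and −0.38, and with total-count scaling, at −1.22 and −1.23.

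JQ1 alone changed a smaller part of the members. Against Unstimulated cells 14 were higher and 19 lower, against 22.1% higher and 23.9% lower of all genes, with a member median of −0.04. With total-count scaling the split was 8 and 30 and on TPM 9 and 35, with the median of all genes at −0.18 and −0.16. All 19 falls and 8 of the 14 rises passed under each scaling. Without replicate 3, 20 members passed.

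Among the rises, Mrps6 stood at the top. Its normalised counts were 66.3, 69.3 and 63.7 in Unstimulated and 138.4, 141.9 and 142.0 with JQ1, a log2 fold change of 1.1 ± 0.15 (DESeq2 adjusted p = 3.46e-12). The libraries of each group were close together and the groups were clear of each other. Mrps6 encodes a small subunit protein of bacterial descent. On mm9 it shares 696 exonic bases on the same strand with Slc5a3, a transporter of myo-inositol, 43.8% of its own exonic bases, so reads of the pair may be divided uncertainly. Slc5a3 itself was at 0.72 with JQ1 and at 1.32 with JQ1 during LPS (DESeq2 adjusted p = 0.00858 and 9.93e-07).

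Mrpl41, which fell with LPS, had 222.3, 238.6 and 235.4 normalised counts with JQ1 and rose by 1.04 ± 0.131 (DESeq2 adjusted p = 2.82e-14). Mrpl24 rose by 1.00, Mrpl49 by 0.93 and both Mrpl17 and Mrpl10 by 0.59. All of these are proteins of the large subunit. Mrpl24 shares 594 exonic bases, 38.1% of its exons, with Rrnad1 on the opposite strand, which was at 0.33.

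On the lower side were Mrpl11, a protein at the base of the stalk, and Mrpl19, a protein of bacterial descent. Mrpl11 had 172.0, 197.9 and 187.0 normalised counts in Unstimulated and 72.6, 81.8 and 93.4 with JQ1, a log2 fold change of −1.16 ± 0.135 (DESeq2 adjusted p = 1.41e-16). Mrpl19 went from 210.6, 255.4 and 227.9 to 114.2, 123.2 and 97.1, or −1.04 ± 0.136 (DESeq2 adjusted p = 2.46e-13). In both the groups were well separated. Mrps35 (−0.75), Mrpl51 (−0.68), Mrpl35 (−0.64) and Mrps27 (−0.58) followed. The call of Mrps35 was lost without replicate 3 and that of Mrpl35 without replicate 1.

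During LPS, JQ1 again moved members both ways. The comparison of LPS + JQ1 with LPS asks what BET inhibition does to the stimulated cell. It gave 21 members higher and 25 lower, against 24.5% and 33.1% of all genes, with medians of 0.02 for the members and −0.11 for all genes. By total-count scaling the split was 44 and 9 and on TPM 39 and 12, with the median of all genes at 0.25 and 0.17. With TMM factors it was 28 and 16 and by edgeR 28 and 20. All 21 rises and 9 of the 25 falls passed under each of these scalings, the 9 being Mrpl52, Mrpl19, Mrpl11, Mrpl3, Mrpl37, Mrpl13, Mrpl21, Mrpl35 and Mrps30.

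Mrpl41 rose most. Its normalised counts were 41.0, 33.1 and 39.3 in LPS and 134.7, 150.6 and 155.1 in LPS + JQ1, a log2 fold change of 1.97 ± 0.191 (DESeq2 adjusted p = 4.98e-24). On this scale the LPS + JQ1 libraries lay above the Unstimulated ones, at 101.5 to 118.8, but in TPM the groups were at 6.5 ± 0.69 and 6.85 ± 0.75 and overlapped. Mrpl49, a mitochondria-specific large subunit protein, had 111.7, 121.0 and 84.7 in LPS and 361.1, 350.7 and 341.0 in LPS + JQ1 (1.72 ± 0.128, DESeq2 adjusted p = 4.36e-40). Mrps6 rose from 113.1, 97.2 and 97.0 to 329.1, 307.5 and 288.0 (1.60 ± 0.138, DESeq2 adjusted p = 6.47e-30), its highest level in any group. Mrps26 (1.29), Mrpl2 (1.24) and Mrpl10 (1.02) completed the members that at least doubled. Mrps12, the homologue of the bacterial decoding centre protein, rose by 0.80.

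Mrpl52 fell most, from 1166.4, 1098.1 and 909.8 in LPS to 453.9, 360.2 and 437.0 in LPS + JQ1 (−1.34 ± 0.142, DESeq2 adjusted p = 2.36e-20). It came to lie near the Unstimulated range of 294.3 to 404.2. Mrpl3 had 336.8, 392.8 and 327.4 in LPS + JQ1, between its Unstimulated and its LPS values on this scale, and fell by 0.93. In TPM the LPS + JQ1 and Unstimulated libraries overlapped for Mrpl3, at 25.98 ± 3.6 and 25.27 ± 2.36. Mrpl19 (−1.15) and Mrpl11 (−1.10) were again low, with 116.0, 125.3 and 131.7 normalised counts for Mrpl19 and 90.6, 85.3 and 103.4 for Mrpl11. Mrpl37 (−0.87) and Mrpl13 (−0.85) were the next. In all 6 the LPS + JQ1 libraries lay below all LPS libraries.

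**Figure D3:**
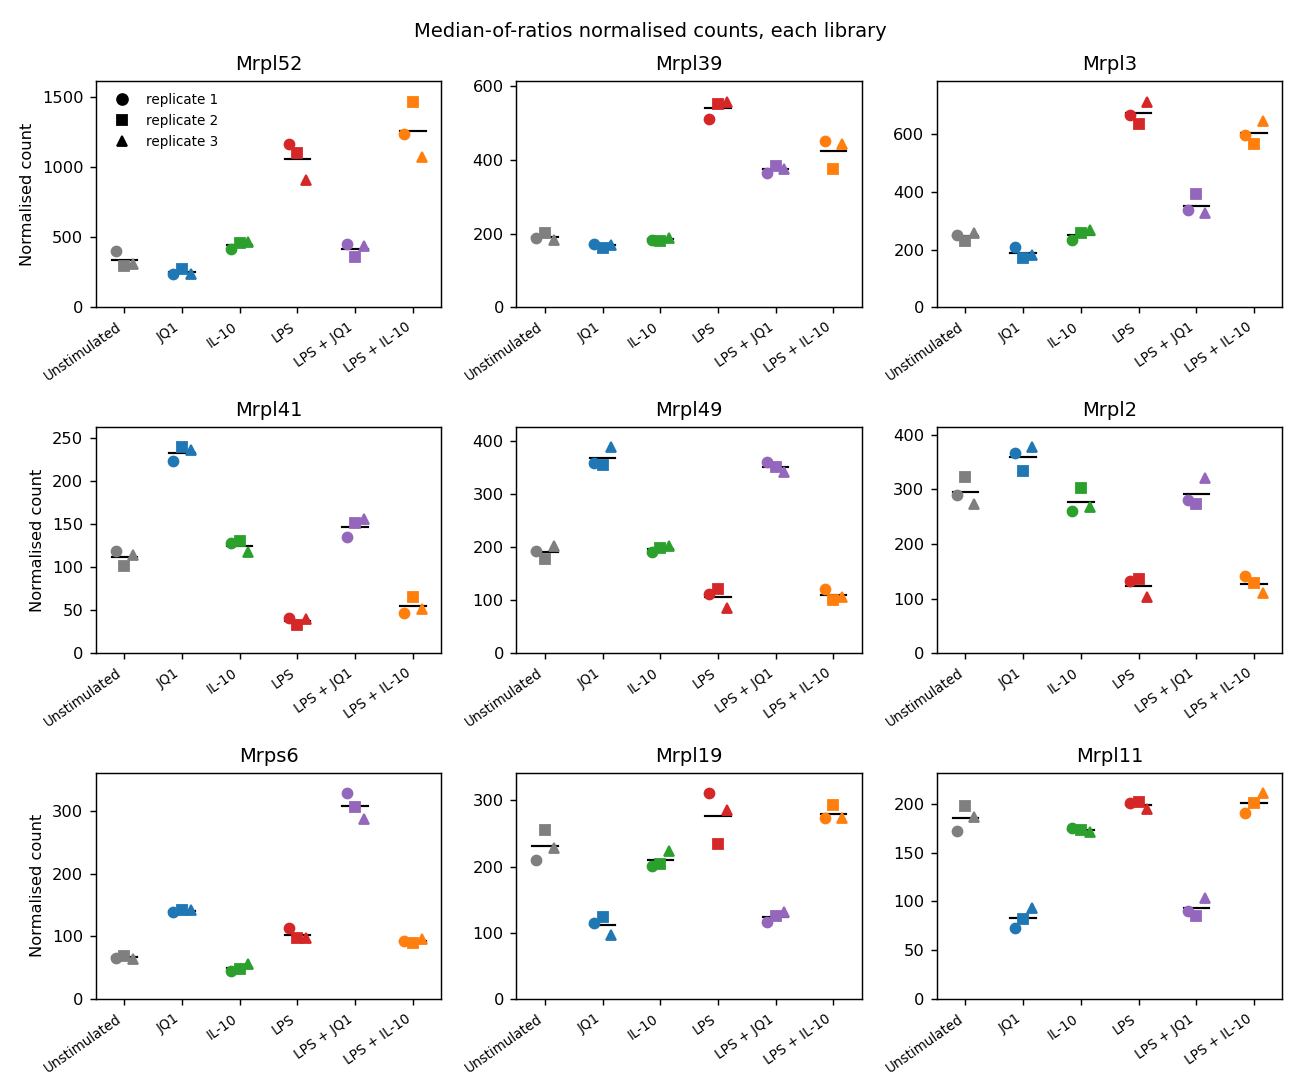
Median-of-ratios normalised counts of 9 members in each of the 18 libraries, by group, with the replicate as symbol and a line at the mean (y axes start at 0). Mrpl52, Mrpl39 and Mrpl3 were high with LPS, and Mrpl19 and Mrpl11 were low in both JQ1 groups. Mrpl41, Mrpl49 and Mrpl2 were low with LPS and, on this scale, near or above their Unstimulated level with LPS + JQ1. Mrpl41 and Mrpl2 were lower with LPS + JQ1 than with JQ1 alone. In TPM, Mrpl2 was at 34.18 ± 3.01 with LPS + JQ1 and 48.06 ± 2.55 in Unstimulated.

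The effects of JQ1 with and without LPS rest on different libraries. In both settings 13 members (16.7%) were higher and 15 (19.2%) lower, against 13.5% and 16.4% of the genes tested in both. Calls in opposite directions were made for 0 members and 4.73% of the genes. A further 5 were called without LPS alone and 18 during LPS alone, which does not show that they differ between the settings. The LPS effect differed with JQ1 for 18 members by the interaction of the 2 treatments (13 positive and 5 negative), against 17.3% positive and 23.3% negative of all genes. A positive value means that LPS lowered the gene less, or raised it more, with JQ1. Mrpl2 (0.94), Mrpl41 (0.93) and Mrpl49 (0.80) led the positive side and passed in every alternative, and Mrps26, Mrpl58, Mrpl40, Mrps12, Mrps27, Mrpl43, Mrpl12, Mrps6, Mrps25 and Mrpl10 followed. Mrpl52 (−0.92), Mrpl3 (−0.52) and Mrpl9 (−0.40) led the negative side, with Mrpl39 and Mrps15. Under total-count scaling 54 members were positive and 0 negative, under TPM 51 and 1, and with TMM factors 17 and 2, with the median of all genes at 0.51, 0.39 and 0.08. The values of Mrpl3 and Mrpl9 changed sign with total-count scaling, to 0.03 and 0.16. Leaving out replicates 1, 2 and 3 in turn gave 6, 9 and 7 members.

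**Figure D4:**
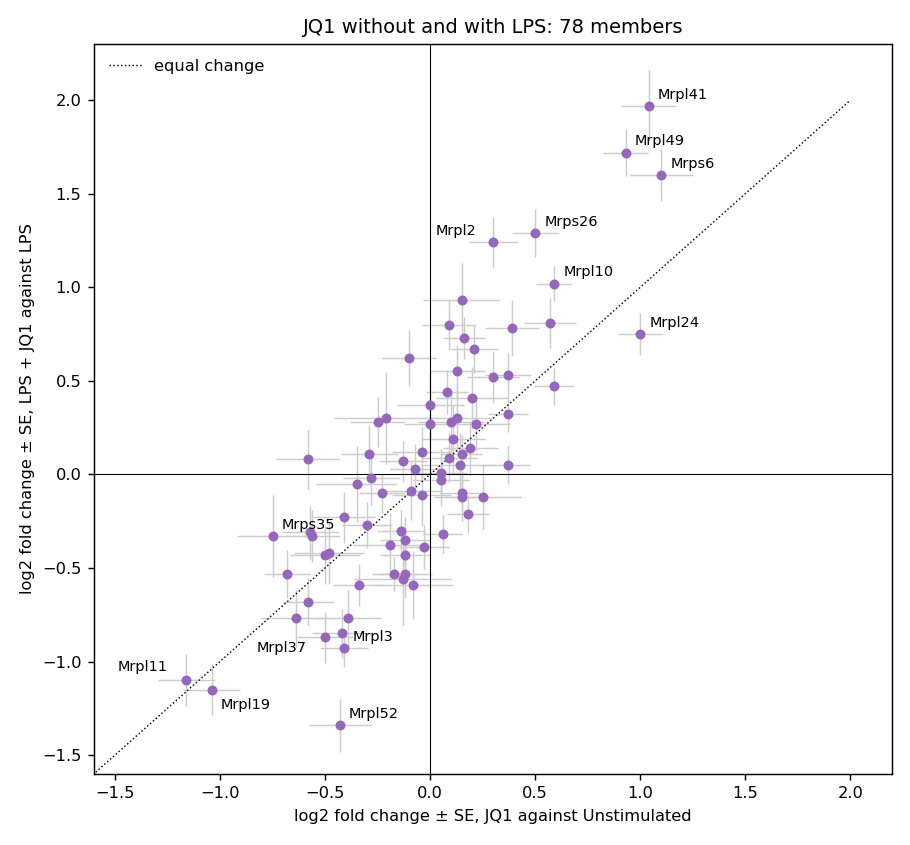
DESeq2 log2 fold change of each of the 78 members for JQ1 against Unstimulated (x axis) and LPS + JQ1 against LPS (y axis), median-of-ratios scaling, with SE as bars and a dotted line of equal change. Mrpl41 lies at 1.04 and 1.97 and Mrpl11 at −1.16 and −1.10.

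Cells pretreated with JQ1 still showed an LPS response of the members. Between LPS + JQ1 and JQ1, 28 were higher and 12 lower, against 27.1% and 30.4% of all genes, with a member median of 0.11. Total-count scaling gave 11 and 36 and TPM 16 and 31. With total-count scaling 8874 of 13937 genes passed, and the median of all genes was −0.46. Mrpl39 (1.15), Mrps6, Mrps18b (0.96), Mrpl3 (0.91), Mrpl46 (0.90) and Mrpl13 (0.86) rose and passed under every alternative. Mrpl42 (−0.75), Mrps35 (−0.74), Mrpl41 (−0.66), Mrps36 (−0.61), Mrpl34 (−0.56) and Mrpl28 (−0.49) fell and passed under each scaling, but Mrps35 and Mrpl34 did not pass under every alternative. This contrast and that of LPS with Unstimulated share no library, and 24 members (30.8%) were higher and 9 (11.5%) lower in both, against 23.5% and 25% of the genes tested in both. For 0 members and 2.15% of the genes the directions were opposite. Without replicate 1, 26 members passed.

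For IL-10 alone no change of a member could be called. No member passed between IL-10 and Unstimulated with DESeq2, 3 had an unadjusted p under 0.05, and edgeR and limma on log2(TPM + 0.1) also called 0, against 1.75% higher and 0.996% lower of all genes. Values ran from −0.44 for Mrps6 to 0.40 for Mrpl52 with a median SE of 0.125. Mrpl52 had 419.8, 458.7 and 463.6 normalised counts with IL-10, all above the Unstimulated libraries (DESeq2 adjusted p = 0.129). It passed with limma on log2(TPM + 1), with only the groups compared and without Unstimulated replicate 1.

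During LPS, few members differed with IL-10. Between LPS + IL-10 and LPS, 4 members passed, 1 higher and 3 lower, against 8.22% and 8.64% of all genes. Mrpl18, a protein of bacterial descent known to bind ribosomal RNA, had 123.0, 130.3 and 159.6 normalised counts in LPS and 175.9, 194.6 and 204.7 in LPS + IL-10 (0.48 ± 0.149, DESeq2 adjusted p = 0.00997). Mrpl13 fell by 0.47, Mrpl39 by 0.35 and Mrps21 by 0.29. Mrpl18 passed under each scaling, but without replicates 1, 2 and 3 the counts of members were 2, 0 and 0, and with the replicate block Mrps21 did not pass (DESeq2 adjusted p = 0.0532) and 3 members did. On TPM 5 were higher and 0 lower. Values over all members ran from −0.47 to 0.52.

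In cells given IL-10, LPS again moved members both ways. Between LPS + IL-10 and IL-10, 31 members were higher and 22 lower, against 33.4% and 33.9% of all genes. Total-count scaling gave 3 and 59 and TPM 6 and 55. With total-count scaling 10861 of 14919 genes passed, and the median of all genes was −0.88. Mrpl52 rose by 1.49, Mrpl3 by 1.27, Mrpl39 by 1.21, Mrpl13 by 1.12, Mrpl27 by 1.02 and Mrps18b by 1.00, and the first 3 of these passed under each scaling. Mrpl41 (−1.22), Mrpl34 (−1.21), Mrpl2 (−1.14), Mrpl42 (−0.88), Mrpl28 (−0.85) and Mrpl49 (−0.85) fell and passed under every alternative. The interaction of LPS with IL-10 called 0 members by DESeq2 and by edgeR, with 4 at an unadjusted p under 0.05, against 3.93% positive and 3.37% negative of all genes, and limma on log2(TPM + 1) called 1, Mrps35. Without replicate 1, 33 members passed between LPS + IL-10 and IL-10.

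Set directly against each other during LPS, the pretreatments differed in 66.7% of members and 55.6% of all genes tested. Between LPS + JQ1 and LPS + IL-10, 26 members were higher and 26 lower, against 23.9% and 31.7% of all genes. Among genes with at least 10 counts in every library, 52 members and 6564 of 9378 genes passed. Total-count scaling gave 37 and 11, TPM 34 and 13 and TMM factors 27 and 18. With total-count scaling 8085 of 14592 genes passed, and the median of all genes was 0.16. All 26 rises and 11 of the falls passed under each scaling. Mrps6 (1.73), Mrpl49 (1.69), Mrpl41 (1.45), Mrpl2 (1.21), Mrps26 (1.18) and Mrpl10 (0.98) were higher with JQ1, and Mrpl52 (−1.59), Mrpl19 (−1.17), Mrpl11 (−1.12), Mrpl37 (−0.88), Mrpl21 (−0.86) and Mrpl35 (−0.85) were lower. Without replicate 1, 34 members passed, and without replicate 3, 32.

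**Figure D5:**
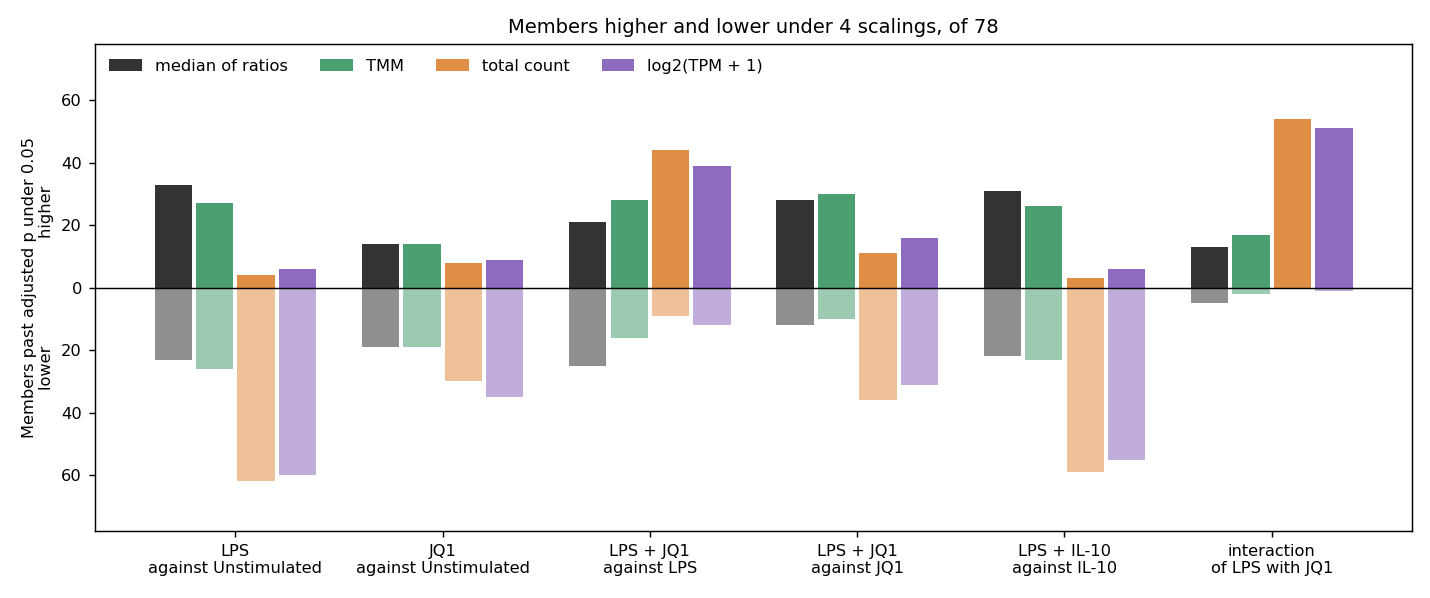
Number of the 78 members past an adjusted p under 0.05, higher (upward bars) and lower (downward bars), in 5 comparisons and the interaction of LPS with JQ1 under 4 scalings. For LPS against Unstimulated the split was 33 and 23 with median of ratios, 27 and 26 with TMM, 4 and 62 with total counts and 6 and 60 with TPM.

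Other genes of mitochondrial translation were read from written lists, which were chosen with earlier results of these data known. With LPS, 1 of 17 mitochondrial tRNA synthetases was higher and 11 were lower, with a median of −0.88 (0 and 17 with total-count scaling), against 31.7% higher and 33% lower of all genes. Between LPS + JQ1 and LPS 9 were higher and 2 lower, with a median of 0.60, against 24.5% and 33.1% of all genes. Nars2, which charges the asparagine tRNA, had 66.3, 76.1 and 67.7 normalised counts in Unstimulated, 8.5, 19.6 and 12.3 in LPS and 50.8, 67.4 and 62.8 in LPS + JQ1. Its log2 fold change was −2.31 with LPS and 2.11 with JQ1 during LPS. Mars2 (−1.23 and 1.88) moved in the same way, while Vars2 (−2.10) was at 0.18 with JQ1 (DESeq2 adjusted p = 0.51), or 0.55 with total-count scaling, which passed (adjusted p = 0.0189).

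Of 15 translation factors and regulators, 2 were higher and 8 lower with LPS, with a median of −0.54 (1 and 13 with total-count scaling, median −1.47). Of 23 genes of ribosome assembly and rRNA modification 5 were higher and 10 lower, with a median of −0.23 (1 and 19 with total-count scaling, median −1.16). Beside both lists, 31.7% of all genes were higher and 33% lower, with a median of −0.07 (−1.02 with total-count scaling). Taco1, an activator of cytochrome oxidase translation, fell by 1.38, and Oxa1l, the insertase to which the ribosome delivers its products, fell by 1.16. Slirp, which stabilises mitochondrial mRNAs, rose by 1.45. Rbfa, a maturation factor of the small subunit, showed a value of −2.69 with LPS and 1.63 with JQ1 during LPS, and the rRNA methyltransferase Mrm2 was at −2.15 and 1.25. Trmt61b, another methyltransferase, went the other way, at 2.38 and −0.90.

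The 5 ribosomal proteins measured under symbols outside the rule included 0 higher and 1 lower with LPS (5 lower with total-count scaling), against 31.7% higher and 33% lower of all genes. Dap3, a small subunit protein that binds GTP, was at −0.18 with LPS (DESeq2 adjusted p = 0.146, −1.11 with total-count scaling) and rose by 0.80 with JQ1 during LPS and by 1.06 with JQ1 alone. Of 8 genes of mitochondrial transcription and replication, 2 were higher and 5 lower with LPS, with a median of −0.28 (0 and 6 with total-count scaling, median −1.21). Of all genes 31.7% were higher and 33% lower, with a median of −0.07 (−1.02 with total-count scaling). Peo1, the replicative helicase, was at −3.44 and Polrmt, the mitochondrial RNA polymerase, at −0.91. Peo1 shares 97 exonic bases with the member Mrpl43 on the opposite strand.

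Regulators tied to mitochondrial biogenesis moved with LPS in the direction opposite to the synthetases. Of 9 listed, 8 could be tested, and 7 were higher and 0 lower with LPS, with a median of 0.98. Of all genes 31.7% were higher and 33% lower, with a median of −0.07. Ppargc1b, a coactivator, had 76.4, 44.0 and 46.9 normalised counts in Unstimulated and 367.6, 393.9 and 300.8 in LPS (2.63 ± 0.191, DESeq2 adjusted p = 2.56e-42). Gabpb1 and Gabpa, the subunits of the factor that binds the ETS core above, rose by 1.82 and 0.94. With total-count scaling 3 of the 8 were higher and 2 lower, with a median of 0.05, Gabpb1 at 0.89 and Gabpa at 0.01. The median of all genes was −1.02 at that scaling. With JQ1 during LPS 1 of the 8 was higher and 6 were lower (4 lower with total-count scaling), among them Gabpa (−1.09) and Gabpb1 (−0.97). Of all genes 24.5% were higher and 33.1% lower in that comparison. Ppargc1a was at a mean of 0.2 counts and was not tested.

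Counts of several members are uncertain because other genes share their exons. On mm9, where 76 of the 78 were found by symbol in GENCODE vM1, 21 members shared exonic bases with another measured gene, in 24 pairs of which 19 were on opposite strands. Reads were assigned without regard to strand under the default settings of the counting program. Mrpl53 lay wholly within the exons of Ccdc142, Mrps34 shared 66.3% of its exonic bases with Mapk8ip3 and Mrps25 57.2% with Nr2c2. With LPS, Ccdc142 was at −3.57, Mapk8ip3 at 0.54 and Nr2c2 at −2.43, where Mrpl53 was higher and Mrps34 and Mrps25 lower. With JQ1 during LPS these partners were at 2.73, 0.92 and 1.39, where Mrpl53 was lower and Mrps34 and Mrps25 higher. What the partners added to the counts of the members was not tested. Among members that led a comparison, besides Mrps6 and Mrpl24 above, Mrpl13 shared 330 bases with Mtbp, Mrpl27 75 with Eme1, Mrpl49 83 with Syvn1 and Mrpl21 117 with Ighmbp2. Mrps27 shared 417 with 6430562O15Rik, Mrpl46 173 with Mrps11 and Mrps26 8 with 4930473A02Rik. Mrpl18 shared 141 with Tcp1, which had a mean of 1870 normalised counts against 178.1 for Mrpl18. Mrpl52 (chr14:55045746-55048587), Mrpl39 (chr16:84717821-84735987), Mrpl3 (chr9:104955569-104979796), Mrpl41 (chr2:24829637-24830618) and Mrpl2 (chr17:46783178-46787088) shared none.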

How the data were processed

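RNA-seq libraries of 18 Il10-/- BMDM samples were made with a stranded, ribosomal RNA-depleting kit and sequenced as paired ends. The authors aligned reads to mm9 with STAR and estimated expected counts per gene with RSEM 1.2.31 at default settings, and the deposited TPM values come from the same program. Deposited effective lengths were read only as a property of each gene, and FPKM was not used. Strand was not considered in counting by default.

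Expected counts were rounded and fitted in DESeq2 1.42.0 (R 4.3.3) over all 18 libraries with group as the term, median-of-ratios scaling, the Wald test, independent filtering and Benjamini-Hochberg adjustment over all genes, with calls at an adjusted p under 0.05. Alternatives were edgeR 4.0.16, limma 3.58.1 on log2(TPM + 1) or log2(TPM + 0.1), other scalings and filters, sequencing lane, only the groups compared, and leaving out replicates. The fit was tested on simulated counts. Floors of 3 counts cover counting error only.

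The members and lists were chosen with earlier results of these data known. Named members were the 6 largest rises and the 6 largest falls per comparison (3 and 3 for interactions) whose mean normalised count was 10 or more and whose 3 same-numbered pairs moved alike, the 5 highest and the 5 lowest by TPM, and a fixed set. Up to 4 genes were named from each list. Any other gene named was chosen after its values were seen. The series design describes matched samples, and replicate numbers were taken as a possible pairing that no label ties to a mouse. Deviations of same-numbered samples from the group means correlated at −0.124 to 0.469. The class of each protein was written from general knowledge. Promoters were RefSeq, GRCm38.p6, and gene positions mm9.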

Additional observations from a re-analysis of the deposited data

Results flagged for a closer look

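The effect of LPS differed with JQ1 for 18 members by the interaction test of DESeq2, or 23.1% of the members against 40.6% of all genes tested. The order of these shares depended on the scaling. With total-count scaling 54 members (69.2%) and 6995 of 13282 genes passed. At median-of-ratios scaling the interaction was 0.94 for Mrpl2, 0.93 for Mrpl41 and 0.80 for Mrpl49, and −0.92 for Mrpl52, −0.52 for Mrpl3 and −0.40 for Mrpl9, all on the log2 scale. Under every scaling all 13 positive calls passed, and 0 of the 5 negative calls did. For IL-10 the same test called 0 members with DESeq2 and 0 with edgeR, while 4 had an unadjusted p under 0.05.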

How the results depend on the processing

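Leaving out libraries gave 36 to 53 members called for LPS against Unstimulated, 20 to 32 for JQ1 against Unstimulated, 0 to 1 for IL-10 against Unstimulated, 35 to 37 for LPS + JQ1 against LPS, 0 to 2 for LPS + IL-10 against LPS, 26 to 32 for LPS + JQ1 against JQ1, 33 to 42 for LPS + IL-10 against IL-10, 32 to 37 for LPS + JQ1 against LPS + IL-10, 6 to 19 for the interaction with JQ1 and 0 for that with IL-10, with fewer samples in each fit. Same-numbered samples did not deviate together in every comparison (correlations of −0.124 to 0.469). For LPS + IL-10 against LPS the correlations were all positive, at 0.205, 0.282 and 0.469. With the replicate block the counts were 55, 33, 0, 45, 3, 41, 53, 52, 21 and 0 in the same order, and of the named members only Mrps21 in LPS + IL-10 against LPS lost its call (DESeq2 adjusted p = 0.0532). IL-10 against Unstimulated gave 1 member with only the groups compared and 1 with limma on log2(TPM + 1), and LPS + IL-10 against LPS gave 1 with only the groups compared. The interaction with JQ1 gave 54 with total-count scaling and 52 and 50 with limma on log2(TPM + 1) and log2(TPM + 0.1), and that with IL-10 gave 1 with each limma fit. The cause was not tested. With total-count scaling 35 members changed sign for LPS against Unstimulated and 33 for the interaction with JQ1. Among the named members signs reversed as follows, with values for total-count scaling and the limma fits in that order. For LPS against Unstimulated, Mrpl44 was at −0.74, −0.56 and −0.58, Mrps30 at −0.74, −0.57 and −0.60, Mrps18a at −0.38, −0.21 and −0.22, Mrps6 at −0.30, −0.15 and −0.16, Mrps22 at −0.17, −0.03 and −0.03, Mrps18b at −0.15, −0.01 and −0.01, and Mrps18c at −0.03 with total-count scaling alone. For the interaction with JQ1, Mrpl9 was at 0.16, 0.11 and 0.11 and Mrpl3 at 0.03 with total-count scaling alone, as was Mrpl44 at 0.02 for LPS + JQ1 against LPS. Including the sequencing lane gave 57, 40 and 54 members for LPS against Unstimulated, LPS + JQ1 against JQ1 and LPS + IL-10 against IL-10. The median SE was 0.125 to 0.139 per comparison, in which counting error and the spread between replicates are not separated.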
